A study of Mus musculus with 2 samples.

Results

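Coagulation and fibrinolysis genes encode the clotting factors, their inhibitors and the plasminogen system, and they were chosen by symbol from a list of 35 genes. An entry was found for 34 of them among the 38320 gene entries of each library, for 36490 of which GENCODE M21 gave a symbol. Plasma prekallikrein (Klkb1) had no entry under its symbol and was not analysed here. The libraries came from adult male C57/Bl6 mice with CCl4-induced liver fibrosis, and CCl4, a toxin that injures hepatocytes, was given to both genotypes for 5 weeks. Control mice were Foxf1fl/fl, in which the Foxf1 gene is flanked by loxP sites and remains intact. αSMACreER;Foxf1-/- mice carried the same floxed alleles and a tamoxifen-inducible Cre driven by the α-smooth muscle actin (αSMA) promoter, so that the deletion is limited to cells that have switched this promoter on, chiefly myofibroblasts. Tamoxifen was injected to switch on the Cre, and the study describes livers of both genotypes after CCl4 and tamoxifen. Liver cells were plated for 2 h and the adherent population, labelled stromal, was collected and pooled into 1 library per genotype. With nothing to set replicate error from, differences are given without p-values. The genotypes are called control and Foxf1-deficient from their labels, and the deletion was not checked in these libraries. By qRT-PCR, the study detected no Foxf1 mRNA in the αSMACreER;Foxf1-/- stromal cells that it submitted for sequencing.

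Levels are FPKM (fragments scaled to transcript length and sequencing depth) as deposited, which may be compared between genes. Differences are log2 fold changes of Foxf1-deficient over control cells, taken after the Foxf1-deficient values were divided by 1.02 (their median ratio to control) and 0.1 was added to each value, which understates the change of genes near 0. About 9820000 mapped reads were estimated for the control library and 11280000 for the Foxf1-deficient one, and the 95% intervals given beside the fold changes follow from those depths and cover counting error only. Chromosomal positions refer to mm10.

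Clotting begins when tissue factor on cells outside the bloodstream meets factor VII, and a chain of proteases then leads through factor X to thrombin, which cuts fibrinogen into fibrin. Antithrombin, the protein C system and tissue factor pathway inhibitor hold this chain in check, and plasmin, cut from plasminogen by tissue-type or urokinase-type activators, dissolves the clot. Hepatocytes make most of the plasma factors, endothelial cells make factor VIII, von Willebrand factor and the cell-bound anticoagulants, and macrophages are a source of the factor XIII A chain, urokinase and its receptor. Macrophages are also known to make factor X and factor VII, and protein S is made by endothelial and myeloid cells besides hepatocytes. Members were grouped by this textbook source into 22 hepatocyte-made genes, of which 21 had an entry, 6 endothelial-made genes, 3 macrophage-made genes and 4 genes of stromal or wide expression.

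The labelled cell type was checked against marker lists. Lrat and Des, which mark hepatic stellate cells, had an FPKM of 0.078 and 1.70 in control cells and of 0.11 and 3.29 in Foxf1-deficient cells, and Pdgfrb had 1.03 and 1.43. Acta2, the αSMA gene itself, had 7.77 in control and 5.65 in Foxf1-deficient cells (log2 fold change −0.48, interval −0.85 to −0.12). Macrophage, hepatocyte and endothelial markers were more abundant. The study, by contrast, describes its purified cells as expressing Des and Acta2 and as lacking markers of hepatocytes and Kupffer cells. The 10 macrophage and Kupffer cell markers summed to an FPKM of 8861 in control and 7687 in Foxf1-deficient cells, led by Lyz2 (lysozyme). The 10 hepatocyte markers summed to 3494 and 1313, led by Alb (albumin), and the 10 endothelial markers to 696 and 686, led by Clec4g. The 10 stellate cell and myofibroblast markers summed to 329 and 470, most of it from Dcn, Col3a1 and Col1a1, and their median log2 fold change was 0.45 over the 8 that averaged an FPKM of 1 or more, with Des past 1.5-fold on the higher side and Acta2 and Tagln (−0.37) below 0. That median was 0.18 once the median of all genes of similar transcript length (20 length groups) was subtracted. Of these lists, hepatocyte markers differed most between the libraries, and in bulk RNA fewer cells of a type and less RNA per cell cannot be told apart.

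All 34 genes had a value above 0 in both libraries (the plot of levels by gene). Plaur, the urokinase receptor, was the most abundant in control cells with an FPKM of 443, ahead of Anxa2 (421), F10 (403) and S100a10 (360). In Foxf1-deficient cells the same 4 genes led, with 413 for Anxa2, 361 for Plaur, 336 for F10 and 284 for S100a10. Together they made up 56.8% of the summed FPKM of the 34 genes in control and 63.2% in Foxf1-deficient cells. Hepatocyte-made genes held 40.3% of that sum in control and 29.3% in Foxf1-deficient cells. Without F10, the most abundant of them, they held 26.3% and 14.1%. F11, the gene for factor XI, was the least abundant, at 0.53 and 0.17, and was left out of the counts because its mean FPKM was under 1.

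**Figure D1:**
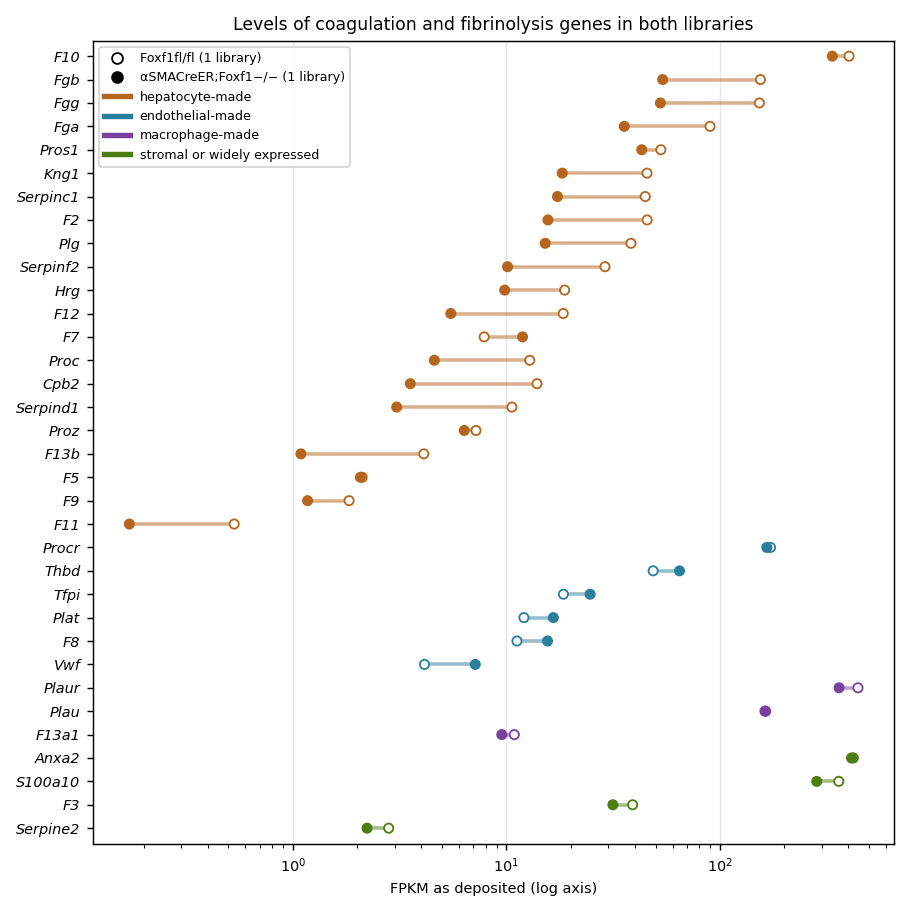
FPKM as deposited (log axis) of the 34 genes in the control library (Foxf1fl/fl, open points) and the Foxf1-deficient library (αSMACreER;Foxf1-/-, filled points), 1 library each, ordered by mean level within each source. Most hepatocyte-made genes sat lower in Foxf1-deficient cells, while Plaur, Anxa2, F10 and S100a10 led in both libraries with values from 284 to 443.

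Among the 33 genes whose FPKM averaged 1 or more, 15 were at least 1.5-fold lower in Foxf1-deficient cells and 1 was at least 1.5-fold higher. Across all 12692 genes compared in this way, 13.2% were at least 1.5-fold lower and 12.8% at least 1.5-fold higher, 26% in either direction. At 2-fold, 13 of the 33 were lower, against 6.21% of all genes. With a counting interval that left out no change also required, 14 were at least 1.5-fold lower and 1 was higher, against 11.1% and 11% of all genes. Each of the 15 was hepatocyte-made, and the 20 hepatocyte-made genes compared had a median log2 fold change of −1.37, against 0.0050 for all genes. The other 5 hepatocyte-made genes, F5, F7, F10, Pros1 and Proz, had log2 fold changes from −0.32 to 0.56. The 6 endothelial-made genes had a median of 0.41 and the 3 macrophage-made genes one of −0.22, and the 4 genes of stromal or wide expression had −0.34. Corrected for transcript length in the same way, these 4 medians were −1.28, 0.26, −0.11 and −0.04. With the libraries scaled to an equal FPKM sum instead, the split of 15 lower and 1 higher became 14 and 6, and that of all genes compared became 1107 and 2777. These counts and medians describe the libraries and do not set the genes apart from others.

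**Figure D2:**
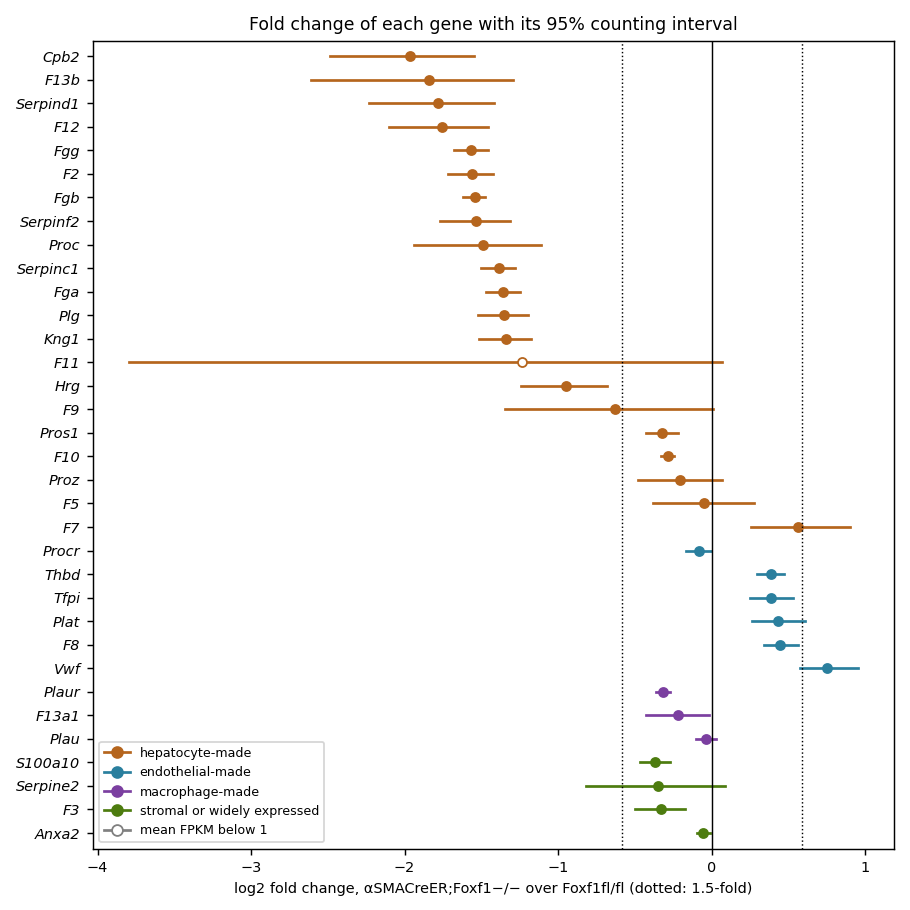
Log2 fold change of Foxf1-deficient over control cells for each gene (points) with its 95% counting interval (bars), coloured by source, with dotted lines at 1.5-fold and an open point for F11, whose mean FPKM was below 1. Genes at least 1.5-fold lower are all hepatocyte-made, and Vwf alone lies past 1.5-fold on the higher side.

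All 3 fibrinogen genes were lower in Foxf1-deficient cells, and by similar amounts. Fibrinogen is built from an α, a β and a γ chain, which hepatocytes assemble in equal numbers. Fgb (ENSMUSG00000033831, chromosome 3 from 83042247 to 83049803, minus strand) had an FPKM of 155 in control and 54.0 in Foxf1-deficient cells (log2 fold change −1.54, interval −1.62 to −1.47). Fgg (ENSMUSG00000033860, chromosome 3 from 83007859 to 83015053) had 153 and 52.6 (log2 fold change −1.57, interval −1.68 to −1.46). Fga (ENSMUSG00000028001, chromosome 3 from 83026153 to 83033615) had 89.9 and 35.6 (log2 fold change −1.36, interval −1.47 to −1.25). All 3 were thus lower by 2.56-fold to 2.96-fold, Fga by the least. The FPKM of Fgg relative to Fgb was 0.99 in control and 0.98 in Foxf1-deficient cells, and that of Fga relative to Fgb was 0.58 and 0.66.

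Factor XIII crosslinks fibrin, and its catalytic A chain and carrier B chain come from different cells. F13b, the hepatocyte-made carrier, had an FPKM of 4.11 in control and 1.09 in Foxf1-deficient cells (log2 fold change −1.84, interval −2.61 to −1.30), on about 88 and 27 reads. F13a1, the macrophage-made catalytic chain (chromosome 13 from 36867178 to 37050244, minus strand), had 10.9 and 9.52 (log2 fold change −0.22, interval −0.43 to −0.02). The level of the B chain gene relative to the A chain gene was 0.377 in control and 0.115 in Foxf1-deficient cells.

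Among the proteases and cofactors that generate thrombin, the genes did not move as a block. F2, the prothrombin gene (ENSMUSG00000027249, chromosome 2 from 91625320 to 91636414, minus strand), had an FPKM of 45.6 in control and 15.7 in Foxf1-deficient cells (log2 fold change −1.56, interval −1.72 to −1.42). F9, the gene for the factor missing in haemophilia B, had 1.83 and 1.17, and its log2 fold change of −0.63 (−1.35 to 0.01) lay just past 1.5-fold, on about 46 and 34 reads, with an interval that includes no change. F5, the cofactor of factor X, had 2.11 and 2.07 (log2 fold change −0.05, interval −0.38 to 0.27). F8, the endothelial-made cofactor of factor IX, was higher in Foxf1-deficient cells at 15.6 against 11.2, by less than 1.5-fold. Its log2 fold change was 0.45 (0.34 to 0.56), which became −0.04 after the correction for transcript length. F12, Kng1 and Klkb1 form the contact system, which starts clotting on charged surfaces and releases bradykinin. F12 (factor XII) had 18.5 in control and 5.49 in Foxf1-deficient cells (log2 fold change −1.76, interval −2.10 to −1.46). Kng1, the kininogen gene, had 45.6 and 18.3 (log2 fold change −1.34, interval −1.51 to −1.18), and its close copy Kng2 had 9.15 and 3.40, so reads shared between the copies may be split unevenly.

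F7, F10 and Proz were among the 5 hepatocyte-made genes that were not 1.5-fold lower. They lie side by side on chromosome 8, on the plus strand, within 50.0 kb. F10, the factor X gene (ENSMUSG00000031444, chromosome 8 from 13037308 to 13056676), had an FPKM of 403 in control and 336 in Foxf1-deficient cells (log2 fold change −0.29, interval −0.33 to −0.25). Its level was 8.82 times that of F2 in control cells and 21.5 times in Foxf1-deficient cells. F7, the factor VII gene (ENSMUSG00000031443, chromosome 8 from 13026034 to 13035809), had 7.87 and 11.9 and was the only hepatocyte-made gene above 0 among the 20 compared, with a log2 fold change of 0.56 (0.25 to 0.90). That is 1.48-fold, just short of 1.5-fold, and F7 passed 1.5-fold when the values were left as deposited. Proz (protein Z, the cofactor of an inhibitor of factor Xa, chromosome 8 from 13060908 to 13075006) had 7.21 and 6.35 (log2 fold change −0.21, interval −0.48 to 0.07). F3, the tissue factor gene, whose product starts clotting together with factor VII, had 39.0 and 31.5 (log2 fold change −0.33, interval −0.50 to −0.17).

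Along the chromosome, the fold changes of neighbouring genes were compared for 3 clusters (the plot of fold change by gene order). The fibrinogen genes span 42.1 kb of chromosome 3 in GENCODE M21, and Plrg1, a splicing factor gene at their border, had a log2 fold change of 0.10. Hrg and Kng1 on chromosome 16 lie among other genes for liver plasma proteins, and Ahsg, Fetub and Kng2 next to them had log2 fold changes of −1.42, −2.07 and −1.43. Eif4a2, a translation factor gene beyond Kng1, had 0.23. Beside the F7, F10 and Proz cluster, Mcf2l had −0.17 and Pcid2 had 0.86.

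**Figure D3:**
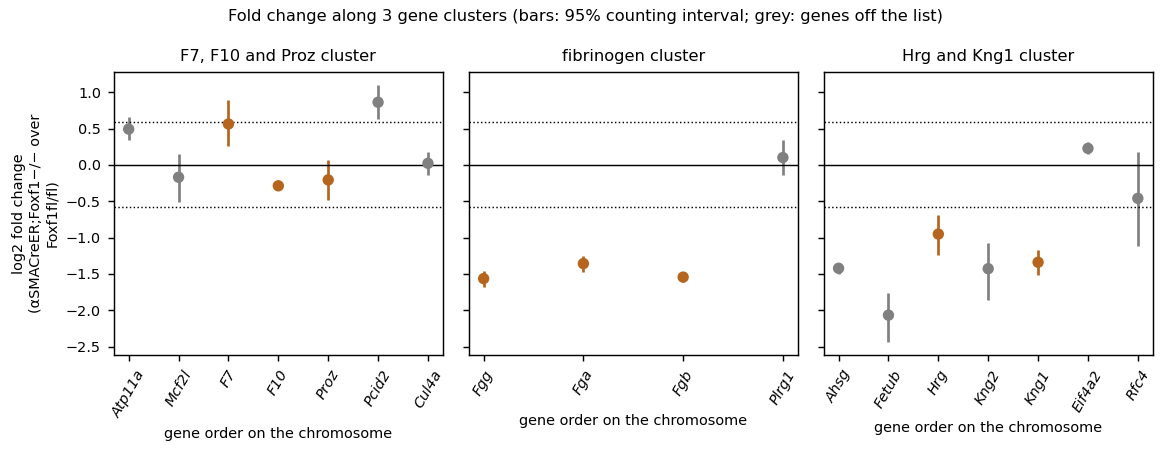
Log2 fold change of Foxf1-deficient over control cells for protein-coding genes averaging an FPKM of 1 or more in chromosomal order (points, with 95% counting intervals), with coagulation genes in brown and neighbours in grey. The fibrinogen genes lie between −1.57 and −1.36, whereas F10 (−0.29) and Proz (−0.21) lie near 0 and F7 is at 0.56.

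Promoter sequences are shown for fibrinogen genes that changed alike and for the F7, F10 and Proz neighbours that did not follow them. Each line gives the 250 bases before the RefSeq start of the gene (GRCm38.p6, the mm10 build), 5′ to 3′ on the strand of the gene, and capitals mark the letters searched for. These were GTTAAT (core of the site of the hepatocyte factor HNF1), CAAAGTCCA and CAAAGGTCA (forms of the HNF4 site), TTGCNNAA (C/EBP) and AGATAA, the site of GATA factors, read on both strands.
Fgb, chr3:83049864-83050113, minus strand: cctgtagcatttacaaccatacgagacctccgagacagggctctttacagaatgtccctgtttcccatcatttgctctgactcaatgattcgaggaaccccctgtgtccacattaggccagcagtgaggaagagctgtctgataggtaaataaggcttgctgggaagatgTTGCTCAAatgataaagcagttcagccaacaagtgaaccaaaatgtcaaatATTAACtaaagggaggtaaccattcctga
Fgg, chr3:83007474-83007723, plus strand: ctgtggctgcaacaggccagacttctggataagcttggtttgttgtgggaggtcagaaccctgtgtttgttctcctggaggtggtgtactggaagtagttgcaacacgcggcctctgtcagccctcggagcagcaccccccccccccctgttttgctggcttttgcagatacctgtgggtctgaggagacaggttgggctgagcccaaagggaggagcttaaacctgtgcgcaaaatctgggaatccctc
F7, chr8:13025784-13026033, plus strand: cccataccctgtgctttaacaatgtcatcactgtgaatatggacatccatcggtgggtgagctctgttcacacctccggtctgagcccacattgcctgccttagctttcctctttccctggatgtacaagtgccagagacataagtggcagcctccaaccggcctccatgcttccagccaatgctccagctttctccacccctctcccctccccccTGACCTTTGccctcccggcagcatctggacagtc
F10, chr8:13037058-13037307, plus strand: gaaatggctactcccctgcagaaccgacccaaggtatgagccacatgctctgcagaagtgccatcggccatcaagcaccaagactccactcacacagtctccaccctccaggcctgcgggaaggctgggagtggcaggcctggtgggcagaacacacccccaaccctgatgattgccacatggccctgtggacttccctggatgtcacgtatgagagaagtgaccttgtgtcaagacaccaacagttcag
Proz, chr8:13060658-13060907, plus strand: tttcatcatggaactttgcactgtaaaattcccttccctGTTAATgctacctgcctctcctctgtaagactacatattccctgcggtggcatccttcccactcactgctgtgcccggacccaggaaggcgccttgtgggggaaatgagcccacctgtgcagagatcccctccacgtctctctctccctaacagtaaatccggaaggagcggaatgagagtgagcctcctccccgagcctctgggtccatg

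The Fgb window holds the HNF1 core in reverse from 29 bases before the start and C/EBP letters from 80 bases before it, and the Fga window, not shown, holds the same pair from 43 and 135 bases before its start. None of the letters searched occurs in the Fgg and F10 windows. F7 has the second HNF4 form 34 bases before its start, and Proz has the HNF1 core 211 bases before. A window was available for 26 of the 34 genes. The HNF1 core was found in 4 of the 18 hepatocyte-made genes with a window (22.2%) and in 7.49% of the 27025 genes in the promoter table. C/EBP letters were found in 5 of the 18 and in 10.8% of all genes, the second HNF4 form in 1 and in 0.485%, and GATA letters in 1 and in 11.4%. The first HNF4 form was in none of the 18 and in 0.451% of all genes. Among the other 8 genes with a window, C/EBP letters were found in Procr and Plaur and GATA letters in Tfpi, and none held the HNF1 or HNF4 letters. A match describes letters and is not evidence of binding.

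Of the 6 hepatocyte-made anticoagulant genes, Serpinc1, Serpind1, Proc and Hrg were at least 1.5-fold lower, and Pros1 and Proz were not. Serpinc1, the antithrombin gene (ENSMUSG00000026715, chromosome 1 from 160978606 to 161003010), had an FPKM of 44.7 in control and 17.4 in Foxf1-deficient cells (log2 fold change −1.39, interval −1.50 to −1.28). Serpind1 (heparin cofactor II) had 10.6 and 3.07 (log2 fold change −1.79, interval −2.23 to −1.42). Proc, which encodes protein C, had 12.9 and 4.60 (log2 fold change −1.49, interval −1.94 to −1.11). Hrg, the gene for a plasma glycoprotein that binds heparin and plasminogen, had 18.7 and 9.82, a smaller difference than these 3 (−0.95, interval −1.25 to −0.68). Pros1, the protein S gene, whose product is the cofactor of protein C and also a ligand of phagocyte receptors, had 52.9 and 43.1 (log2 fold change −0.32, interval −0.43 to −0.22).

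The cell-bound partners of these plasma proteins were not lower by 1.5-fold. Thbd, the thrombomodulin gene (chromosome 2 from 148404471 to 148408188, minus strand), had an FPKM of 48.7 in control and 64.7 in Foxf1-deficient cells (log2 fold change 0.38, interval 0.29 to 0.47). Procr, the endothelial protein C receptor gene, had 173 and 166 (log2 fold change −0.09, interval −0.17 to −0.0044). Tfpi (tissue factor pathway inhibitor) had 18.5 and 24.7 (log2 fold change 0.39, interval 0.25 to 0.53). Relative to its target F3, Tfpi was at 0.47 in control and 0.78 in Foxf1-deficient cells. Serpine2, the gene for protease nexin-1, a thrombin inhibitor of fibroblasts, was low in both libraries at 2.81 and 2.23 (−0.35, interval −0.82 to 0.09). Vwf, the gene for the protein that tethers platelets to the vessel wall (ENSMUSG00000001930, chromosome 6 from 125546774 to 125686679), had 4.14 and 7.15 and was the 1 gene past 1.5-fold on the higher side, with a log2 fold change of 0.75 (0.58 to 0.95). Its longest transcript has 8834 bases, and after the correction for transcript length its log2 fold change was 0.26, no longer past 1.5-fold.

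In the fibrinolytic system, the 3 hepatocyte-made genes were lower. Plg, the plasminogen gene (ENSMUSG00000059481, chromosome 17 from 12378609 to 12419384), had an FPKM of 38.3 in control and 15.2 in Foxf1-deficient cells (log2 fold change −1.35, interval −1.52 to −1.19). Serpinf2 (α2-antiplasmin, the inhibitor of plasmin) had 29.0 and 10.1 (log2 fold change −1.53, interval −1.77 to −1.32). Cpb2, the gene for a carboxypeptidase that protects fibrin from plasmin, had 13.9 and 3.55, and its log2 fold change of −1.97 (−2.49 to −1.55) was the lowest of the 33 genes compared. Substrate and inhibitors of the system were thus lower together.

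The plasminogen activators, which turn plasminogen into plasmin, were not. Plat (tissue-type activator) had 12.1 in control and 16.6 in Foxf1-deficient cells (log2 fold change 0.43, interval 0.26 to 0.60). Plau, the urokinase gene (ENSMUSG00000021822, chromosome 14 from 20836662 to 20843388), had 164 and 162 (log2 fold change −0.04, interval −0.10 to 0.03). Plaur (ENSMUSG00000046223, chromosome 7 from 24462500 to 24475873) had 443 and 361 (log2 fold change −0.32, interval −0.37 to −0.27). Urokinase was thus the more abundant activator transcript, at 13.6 times Plat in control cells and 9.79 times in Foxf1-deficient cells. Annexin A2 and S100A10 form a surface complex that gathers plasminogen and its activator. Anxa2 had 421 and 413 (log2 fold change −0.05, interval −0.10 to −0.01), and S100a10 had 360 and 284 (log2 fold change −0.37, interval −0.47 to −0.27). S100a10 has the shortest longest transcript of the list (685 bases), and after the same correction for length its log2 fold change was 0.03.

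Cell type markers were set beside these genes (the plot of sources and markers). All 10 hepatocyte markers were at least 1.5-fold lower in Foxf1-deficient cells, with log2 fold changes from −1.92 for Ttr (322 and 86.8) to −0.73 for Cps1 and a median of −1.43, and none was at 0. Alb had 2292 and 912, and Apoa1, a lipoprotein gene, had 261 and 84.2. Of the 20 hepatocyte-made genes compared, 13 lay inside that range, Cpb2 lay below it and 6 lay above it, namely F9, Pros1, F10, Proz, F5 and F7. Relative to Alb, the genes went both ways. Prothrombin had an FPKM of 19.9 per 1000 of Alb in control and 17.2 in Foxf1-deficient cells, and Plg had 16.7 in both. F10 had 176 per 1000 of Alb in control and 368 in Foxf1-deficient cells, and Pros1 had 23.1 and 47.2. Genes lower relative to Alb included Cpb2 (6.07 and 3.89 per 1000 of Alb) and F13b (1.79 and 1.20). Serpind1 (4.63 and 3.36) and F12 (8.06 and 6.02) were also among them, as were Fgb, Fgg, Serpinf2 and Proc. The part of the hepatocyte markers in the lower level of the hepatocyte-made genes was not tested.

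Macrophage and Kupffer cell markers had a median log2 fold change of −0.23, with Clec4f at 1117 and 753, Adgre1 at 162 and 165 and Cd68 at 646 and 679 in control and Foxf1-deficient cells. Of these 10 markers, Clec4f was at least 1.5-fold lower and Itgam at least 1.5-fold higher, and none was at 0. The endothelial markers had a median of 0.10 and a range from −0.47 (Clec4g) to 0.42 (Tek), and 0 of 10 passed 1.5-fold in either direction. Pecam1 had 93.3 and 96.6, Cdh5 had 98.4 and 113, and Kdr had 40.0 and 47.3. Thbd and Tfpi lay inside that range near its upper end, Plat and F8 just above it, and Vwf at 0.75 above it. Corrected for transcript length, the median of the endothelial markers was −0.10. F8 and Vwf then had −0.04 and 0.26, and Thbd, Tfpi and Plat had 0.29, 0.27 and 0.31. Platelet and megakaryocyte markers bear on F13a1, F5 and Vwf since platelets carry these proteins. Their median was −0.13, over only the 3 of 8 that averaged an FPKM of 1 or more. The 8 summed to 77.1 and 63.9, mostly from Pf4 at 64.5 and 51.4, and Gp6 was listed at 0 in both libraries. Ppbp had 1.54 and 2.24 and Itga2b had 8.25 and 7.67. Cholangiocyte markers had a median of 0.26 and summed to 553 and 655, mostly from Spp1 at 495 and 606, with Krt19 at 39.7 and 29.5, Krt7 at 4.91 and 6.91 and Epcam at 8.38 and 5.65. Of the 5 that averaged an FPKM of 1 or more, Epcam passed 1.5-fold, on the lower side. Mesothelial markers had a median of 0.09 and summed to 264 and 162, led by Krt8 at 130 and 75.1, and Krt8 and Krt18, keratins that hepatocytes also make, were at least 1.5-fold lower, while Msln had 11.4 and 13.1 and Upk3b 13.1 and 14.2. The part of these cell types in the differences was not tested.

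**Figure D4:**
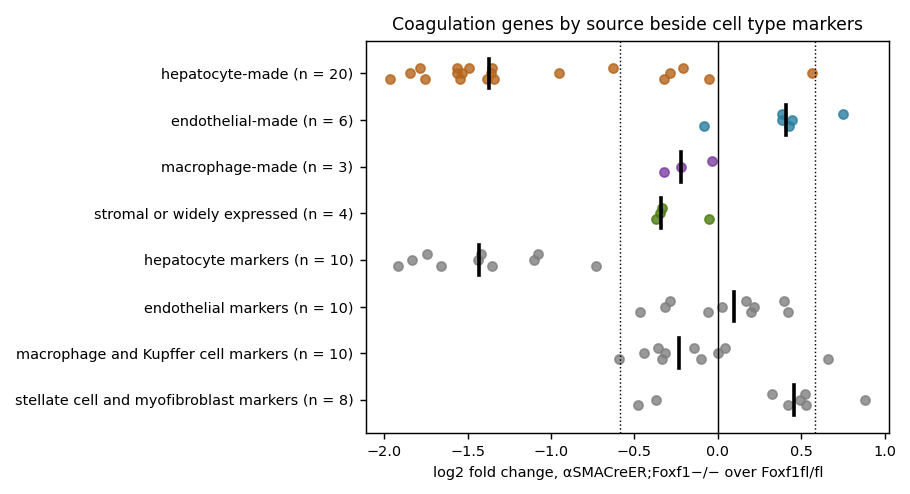
Log2 fold change of Foxf1-deficient over control cells for coagulation genes by source (coloured points) and for markers of 4 cell types (grey points), for genes averaging an FPKM of 1 or more, with the median of each list as a black bar and dotted lines at 1.5-fold. The hepatocyte-made genes have a median of −1.37 and the hepatocyte markers one of −1.43, and 5 hepatocyte-made genes lie to the right of the lower dotted line.

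A further list of 31 genes of the same pathway was read, of which 23 averaged an FPKM of 1 or more. Of these, 4 were at least 1.5-fold lower and 2 at least 1.5-fold higher, against 13.2% and 12.8% of all genes compared, and the median log2 fold change was 0.02. Of the 4 lower genes, 2 were among the 7 inhibitors and regulators compared, which had a median log2 fold change of −0.08. The other 2 were among 4 further secreted proteins of the pathway, with a median of −0.14. Serpina10, the inhibitor that works with protein Z, had 11.4 in control and 3.47 in Foxf1-deficient cells (−1.71, interval −2.04 to −1.45), and Pzp, a general protease inhibitor, had 32.6 and 14.2 (−1.22). Hgfac and Habp2, which encode proteases related to factor XII, had log2 fold changes of −1.26 and −0.60. On the higher side, Serpinb2 (plasminogen activator inhibitor 2, made by macrophages) had 112 and 193 (log2 fold change 0.76, interval 0.69 to 0.84). Gp1bb, a platelet receptor chain, had 0.74 and 1.37, a log2 fold change of 0.79 whose interval, −0.14 to 1.86, includes no change.

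Among the receptors, Eno1, a plasminogen-binding surface enzyme, had an FPKM of 279 in control and 276 in Foxf1-deficient cells, and F2r, the thrombin receptor, had 37.1 and 41.2. The genes of the vitamin K cycle and of factor secretion, which process the clotting factors inside the cell, had log2 fold changes from −0.49 (Vkorc1) to 0.43 (Ggcx), and 0 of 5 passed 1.5-fold. Mcfd2, which carries factors V and VIII out of the endoplasmic reticulum, was the most abundant of them at 121 and 96.0. Anxa5, an anticoagulant that covers phospholipid, had 349 and 303, Itga2b led the platelet receptors, and Tgm2, a transglutaminase related to factor XIII, had 413 and 525 (log2 fold change 0.32, interval 0.29 to 0.35).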

How the data were processed

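RNA-seq libraries of adherent hepatic stromal cells, 1 pooled library per genotype, were analysed. Per the labels, 75-base single-end reads were aligned with TopHat to mm10, and the authors deposited Cufflinks FPKM values per Ensembl gene. Versions were not given in the sources used here. Entries with a status other than OK (3 and 2) were left out. Symbols came from GENCODE M21, and 1 entry, the more abundant, stood for a repeated symbol. Values were scaled by the median ratio of 11871 genes, 0.1 was added before log2, and genes averaging an FPKM of 1 or more were counted at 1.5-fold, the fold threshold of the study. No test was possible with 1 library per genotype.

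Depth was read from the steps between low FPKM values in genes with a single transcript, with a fragment length of 200 bases assumed. Only 46.7% and 47.7% of the 1153 and 1400 such values fell within 0.1 of a whole read, which makes these depths approximate. Exact (Clopper-Pearson) 95% intervals of the ratio used reads placed on the longest transcript. The procedure was also run on simulated data. These were drawn with the same assumed fragment and transcript lengths and with counting error only, so they cannot test those assumptions.

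All 34 genes of the list are reported, in order of role. From the further pathway list, genes past 1.5-fold and the most abundant gene of each sublist were named, and from each marker list the first 3 genes, the most abundant gene and genes at 0. A gene of that pathway list is not reported here by name. Others were named after their values were seen, as examples. The members and lists were chosen with earlier results of these data known. Foxf1 was not analysed here, so the deletion was not checked. Sequences came from RefSeq (GRCm38.p6). Start positions in the files count from 0 and are printed from 1. Calculations used scipy 1.17.1, pandas 2.3.3 and numpy 2.4.6 under Python 3.11.15, and plots matplotlib 3.10.9.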

Additional observations from a re-analysis of the deposited data

How the results depend on the processing

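No paired analysis was possible because there was 1 library of each genotype. Over the main setting and 11 alternatives, the genes at least 1.5-fold lower numbered 13 to 16 of the list, and each was hepatocyte-made. F9 dropped out with a pseudocount of 1, scaling to an equal FPKM sum or to the upper quartile, the median of genes of similar length subtracted (length trend removed) or a counting interval that leaves out no change, and also with a mean FPKM of 5 asked for and at 2-fold. The number at least 1.5-fold higher was 1 and became 2 as deposited and with upper-quartile scaling (F7 added), 6 with an equal FPKM sum (F7, F8, Thbd, Tfpi and Plat added) and 0 at 2-fold. With the length trend removed it was also 1, but F7 in place of Vwf. An equal FPKM sum left 14 lower and put the all-gene median at 0.21, which was 0.12 with upper-quartile scaling. The hepatocyte-made median of −1.37 moved to −1.17 and −1.25 under these scalings, and the endothelial-made median of 0.41 to 0.61 under the first. With the length trend removed, the endothelial-made median was 0.26 and that of genes of stromal or wide expression moved from −0.34 to −0.04. Of the further pathway genes, 2 were lower when a mean FPKM of 5 was asked for. The number higher was 1 with a pseudocount of 1, with that same filter and with the counting interval required, 4 without a filter, 5 with an equal FPKM sum and 0 at 2-fold. The sign of 6 genes, none past 1.5-fold in the main setting, turned under some alternative. F5, Procr, Plau and Anxa2 turned under both of these scalings, and Procr, Plau, Anxa2, F8 and S100a10 without the length trend. Causes were not tested. Depth limits F11, F9 and F13b, with 11, 46 and 88 estimated reads in control and 4, 34 and 27 in Foxf1-deficient cells.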
